A study of Mus musculus with 15 samples.

Results

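The SLC25 family of mitochondrial carriers was followed through the transcriptomes of sorted mouse islet alpha, beta and delta cells. Members were taken as every gene of the deposited table whose symbol is Slc25a followed by a number, which gave 44 of 38283 genes. Carriers that the table lists under other names (Ucp1, Ucp2, Ucp3, Mtch1, Mtch2, and Mcart1 and Mcart6, older symbols of Slc25a51 and Slc25a53) fell outside this rule and are described separately. The study profiled 15 samples, 5 of alpha cells, 4 of beta cells and 6 of delta cells, to find what sets the cell types apart. Alpha and beta cells came from C57BL/6 mice of the Glu-Venus genotype, in which the proglucagon promoter drives the Venus fluorophore. Alpha cells were sorted as Venus-positive, and beta cells from the Venus-negative cells by high scatter and autofluorescence. Delta cells came from C57BL/6 mice of the Sst-CreXROSA26EYFP/EYFP genotype, in which cells that have expressed the somatostatin-driven Cre carry EYFP. No treatment separated the groups. Mouse line and cell type cannot be told apart for delta cells. Each sample pooled islets from several mice, so the p-values measure the spread between pools.

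Members of the SLC25 family sit mostly in the inner mitochondrial membrane and move nucleotides, phosphate, carboxylates, amino acids and cofactors between cytosol and matrix. In the beta cell, oxidation of glucose raises ATP, and carriers export ATP, citrate and malate or pass reducing equivalents through the malate-aspartate shuttle. Several carriers exist as paralogues with overlapping substrates, so the level of each paralogue can differ between cell types while the transport step is shared.

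Levels are given as FPKM, a fragment count scaled to transcript length and library size, so that genes can be compared. The number of reads could be read from single-read steps in 6 of the 15 samples, at 7.63 M to 11 M reads in 3 and 25.2 M to 30.9 M in the other 3, and is unknown in the other 9. The labelled cell types carried their own markers. The summed level of the 5 alpha markers was 194948 to 363669 FPKM in alpha samples and at most 3005 elsewhere, that of the 7 beta markers was 140035 to 788769 in beta samples and at most 14846 elsewhere, and that of the 3 delta markers was 102581 to 267799 in delta samples and at most 3345 elsewhere. Among markers of other cells, the summed level of the 9 acinar markers was 8.17 to 107 FPKM in alpha, 0.0447 to 18.3 in beta and 90.5 to 627 in delta samples, with 1 of the 9 at 0 in all samples of each cell type. The 6 ductal markers summed to 25.4 to 172 FPKM in alpha, 8.56 to 24.7 in beta and 20.5 to 101 in delta samples, and the endothelial, immune and mesenchymal lists to at most 6.17. The samples also fell into sets by the summed level of 83 ribosomal protein genes, which was 63224 to 134827 FPKM in 6 samples (alpha 1, 2 and 3, beta 2, delta 1 and 2) and 7849 to 37177 in the other 9. Beta 2 was the only beta sample of the higher set. The 3 samples of known lower depth (alpha 2, delta 1 and 2) were all in the higher set and the 3 of known higher depth (alpha 5, delta 3 and 4) in the lower set, so in these 6 samples depth and set cannot be told apart.

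Carriers of oxidative phosphorylation were among the members with the highest levels. Slc25a3, the phosphate carrier, had the highest mean of the 44 members in each cell type, at 246 ± 138 FPKM in alpha (SD, n = 5), 181 ± 198 in beta (n = 4) and 145 ± 73.4 in delta cells (n = 6). Ucp2, a carrier outside the naming rule, averaged more in alpha and delta cells, at 362 and 589 FPKM, and less in beta cells, at 146. Without beta 2, the beta mean of Ucp2 (106) was above that of Slc25a3 (82.8). The ADP/ATP translocators Slc25a5 and Slc25a4, which exchange matrix ATP for cytosolic ADP, came next among members in alpha cells, and in beta cells only with beta 2 included. Without beta 2, Slc25a12 (35.1 FPKM) and Slc25a36 (33.5) had higher beta means than Slc25a5 (28.0) and Slc25a4 (27.5). Slc25a5 averaged 115 ± 58.8 FPKM in alpha, 65.0 ± 74.5 in beta and 49.3 ± 28.8 in delta cells, and Slc25a4 averaged 90.1 ± 31.9, 52.2 ± 50.9 and 59.6 ± 26.6. These 3 carriers were not called different in any comparison. Under quantile normalization Slc25a4 was called between beta and alpha cells (-1.03, adjusted p = 0.0153, limma) and Slc25a5 between delta and alpha cells (-1.09, adjusted p = 0.0462), the latter also with the sample set and size factors (-1.05, adjusted p = 0.00206). Each sample is a pool of sorted cells. Here and below, fewer cells with a transcript and less of it per cell cannot be told apart. Neighbours in this order overlapped within each cell type, and 33.8% of the 50-base stretches of Slc25a5 transcripts are shared with 9 other genes, so its reads could be split between them. Slc25a39, the mitochondrial glutathione carrier, averaged 86.6 ± 45.8 FPKM in alpha, 25.0 ± 26.6 in beta and 50.2 ± 24.4 in delta cells.

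Next by the mean over the cell types stood Slc25a12, the calcium-activated aspartate/glutamate carrier aralar1 of the malate-aspartate shuttle, Slc25a1, the citrate carrier, and Slc25a14, an uncoupling protein-like carrier. Slc25a12 averaged 33.4 ± 12.7 FPKM in alpha, 47.8 ± 26.3 in beta and 48.7 ± 15.9 in delta cells. Slc25a1 averaged 35.7 ± 8.29, 28.5 ± 26.5 and 33.5 ± 12.1 FPKM, and Slc25a14 averaged 28.2 ± 19.9, 31.9 ± 46.6 and 27.0 ± 16.3. The levels of all 3 overlapped between the cell types. Without beta 2, the beta means were 35.1, 16.3 and 8.67 FPKM.

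**Figure D1:**
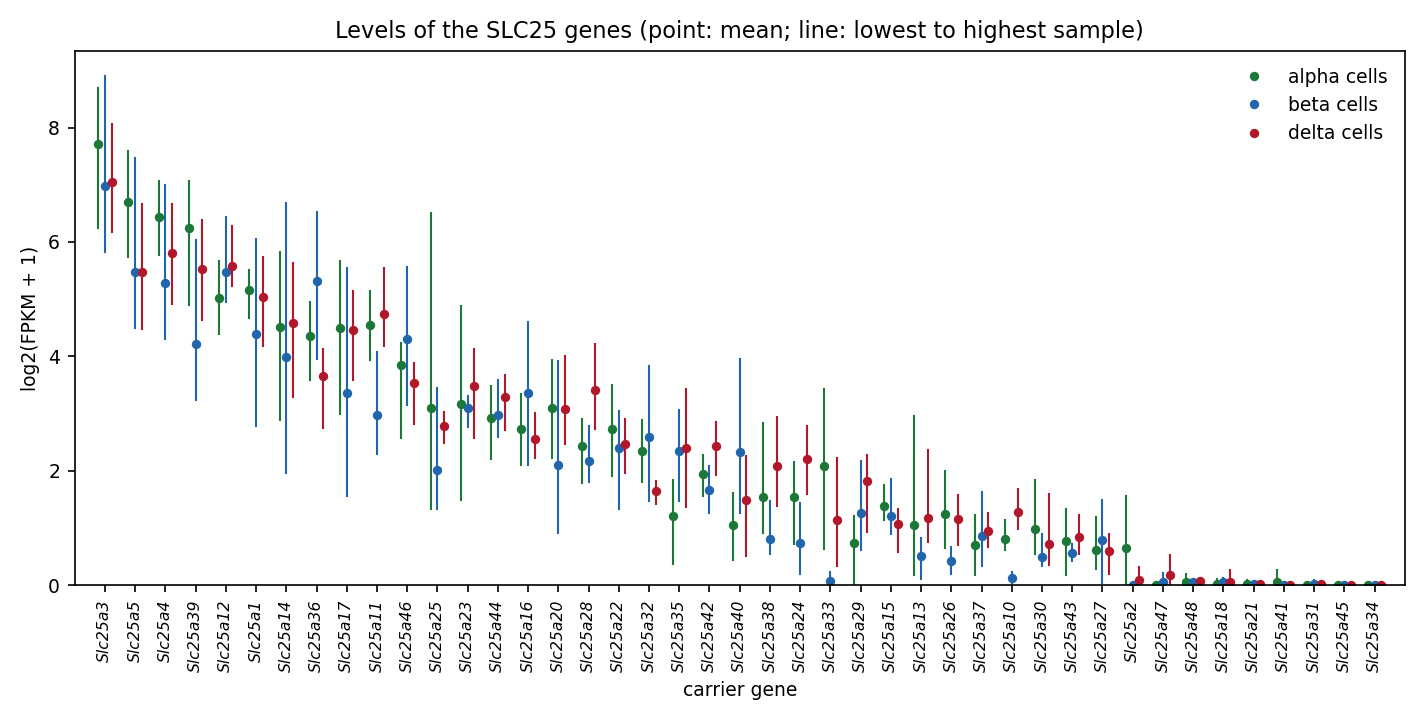
Levels of 43 of the 44 carriers as log2(FPKM + 1), ordered by their mean over the cell types, with the mean (point) and the lowest to highest sample (line) in alpha (n = 5), beta (n = 4) and delta cells (n = 6). Slc25a3 leads in each cell type, and its beta samples run from 56.0 to 476 FPKM, with beta 2 the highest.

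The mean was above 1 FPKM for 30 members in alpha, 25 in beta and 31 in delta cells, and above 10 FPKM for 13, 11 and 13. Summed over the family, alpha samples held 820 ± 336 FPKM (387 to 1155), beta samples 603 ± 561 (254 to 1433) and delta samples 578 ± 204 (365 to 863), and the ranges overlapped. Beta 2 alone held 1433 FPKM, and without it the beta mean was 326. Slc25a3, Slc25a5, Slc25a4 and Slc25a39 together made up 54.1% to 71.6% of this sum in alpha, 42.7% to 58.8% in beta and 39.9% to 59.4% in delta samples. The sum moved with the ribosomal sets, with means of 1049 and 476 FPKM in the higher and lower set of alpha samples and 834 and 450 in delta samples. In each of these cell types, 24 of the 32 tested members were higher in the higher set, with a median log2 ratio of 0.61 in alpha and 0.56 in delta cells, beside 0.23 and 0.22 over all genes tested. Values within each set are given beside the called differences.

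A test was made on 32 members, those with a mean above 1 FPKM in at least 1 cell type. The other 12 were low in every sample, with no cell type mean above 0.953 FPKM and a highest single value of 2.10 FPKM, for Slc25a37 (mitoferrin 1) in beta 2. They were Slc25a37, Slc25a27, Slc25a43, the ornithine carrier Slc25a2, Slc25a18 (glutamate carrier 2), Slc25a21 (the oxoadipate carrier), Slc25a31 (ADP/ATP translocator 4), Slc25a34, Slc25a41, Slc25a45, Slc25a47 and Slc25a48. Slc25a34 was listed at 0 in all 15 samples.

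Between beta and alpha cells, 2 of the 32 tested members (6.25%) passed an adjusted p under 0.05 in limma, beside 7.66% of the 14405 genes tested. Both were lower in beta cells, as were 4.82% of all genes tested. They were Slc25a33, pyrimidine nucleotide carrier 1, which brings pyrimidine nucleotides into the matrix, and Slc25a11, the oxoglutarate/malate carrier of the malate-aspartate shuttle. Between delta and alpha cells no member was called in limma, beside 6.81% of all genes tested, and 4 of the 32 had an unadjusted p under 0.05, as did 2411 of the 14405 genes. Between delta and beta cells 5 members (15.6%) were called, beside 14.7% of all genes tested. Slc25a10, Slc25a11, Slc25a24 and Slc25a28 were higher in delta cells, where 11.7% of all genes were called higher, and Slc25a36 was lower, where 2.99% of all genes were called lower. The share of members called was near that of all genes between beta and alpha and between delta and beta cells, and below it between delta and alpha cells. Counting any of the 3 comparisons, 6 members were called, beside 19.0% of all genes tested, and the F-test over the cell types called 5, beside 16.0%.

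The count between beta and alpha cells depended on single samples. It was 0 without alpha 1, alpha 2, beta 1 or beta 4, 1 without alpha 3, alpha 5, beta 3, delta 3, delta 4 or delta 5, and 6 without beta 2. The count between delta and beta cells was 8 without beta 2 and 3 without beta 4, and that between delta and alpha cells was 2 without delta 2. The F-test called 1 without beta 1 or beta 4, 3 without delta 2 or delta 3 and 9 without beta 2. The share of all genes called in these fits was not taken, so these changes cannot be read as particular to the members.

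Over the 32 members, the median difference of mean log2(FPKM + 1) was -0.52 between beta and alpha cells, -0.03 between delta and alpha cells and 0.54 between delta and beta cells. Over all genes tested it was -0.13, 0.13 and 0.30. The difference was above 0 for 10 members and below 0 for 22 between beta and alpha cells, 15 and 17 between delta and alpha cells, and 25 and 7 between delta and beta cells. Scaling the samples by median-ratio size factors moved the median of all genes by 0.13, -0.12 and -0.28 and left the members' median at -0.39, -0.18 and 0.18. The same scaling changed the share of higher calls over all genes from 37.0% to 52.7% between beta and alpha cells, from 78.3% to 67.9% between delta and alpha cells and from 79.6% to 51.5% between delta and beta cells. Among members it called 2 higher and 3 lower between beta and alpha cells and 4 higher and 4 lower between delta and beta cells, where it called 14.4% and 18.6% of all genes tested. The added calls were Slc25a36 and Slc25a40, higher, and Slc25a39, lower, in beta against alpha cells, and Slc25a16, Slc25a32 and Slc25a46, lower in delta against beta cells.

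**Figure D2:**
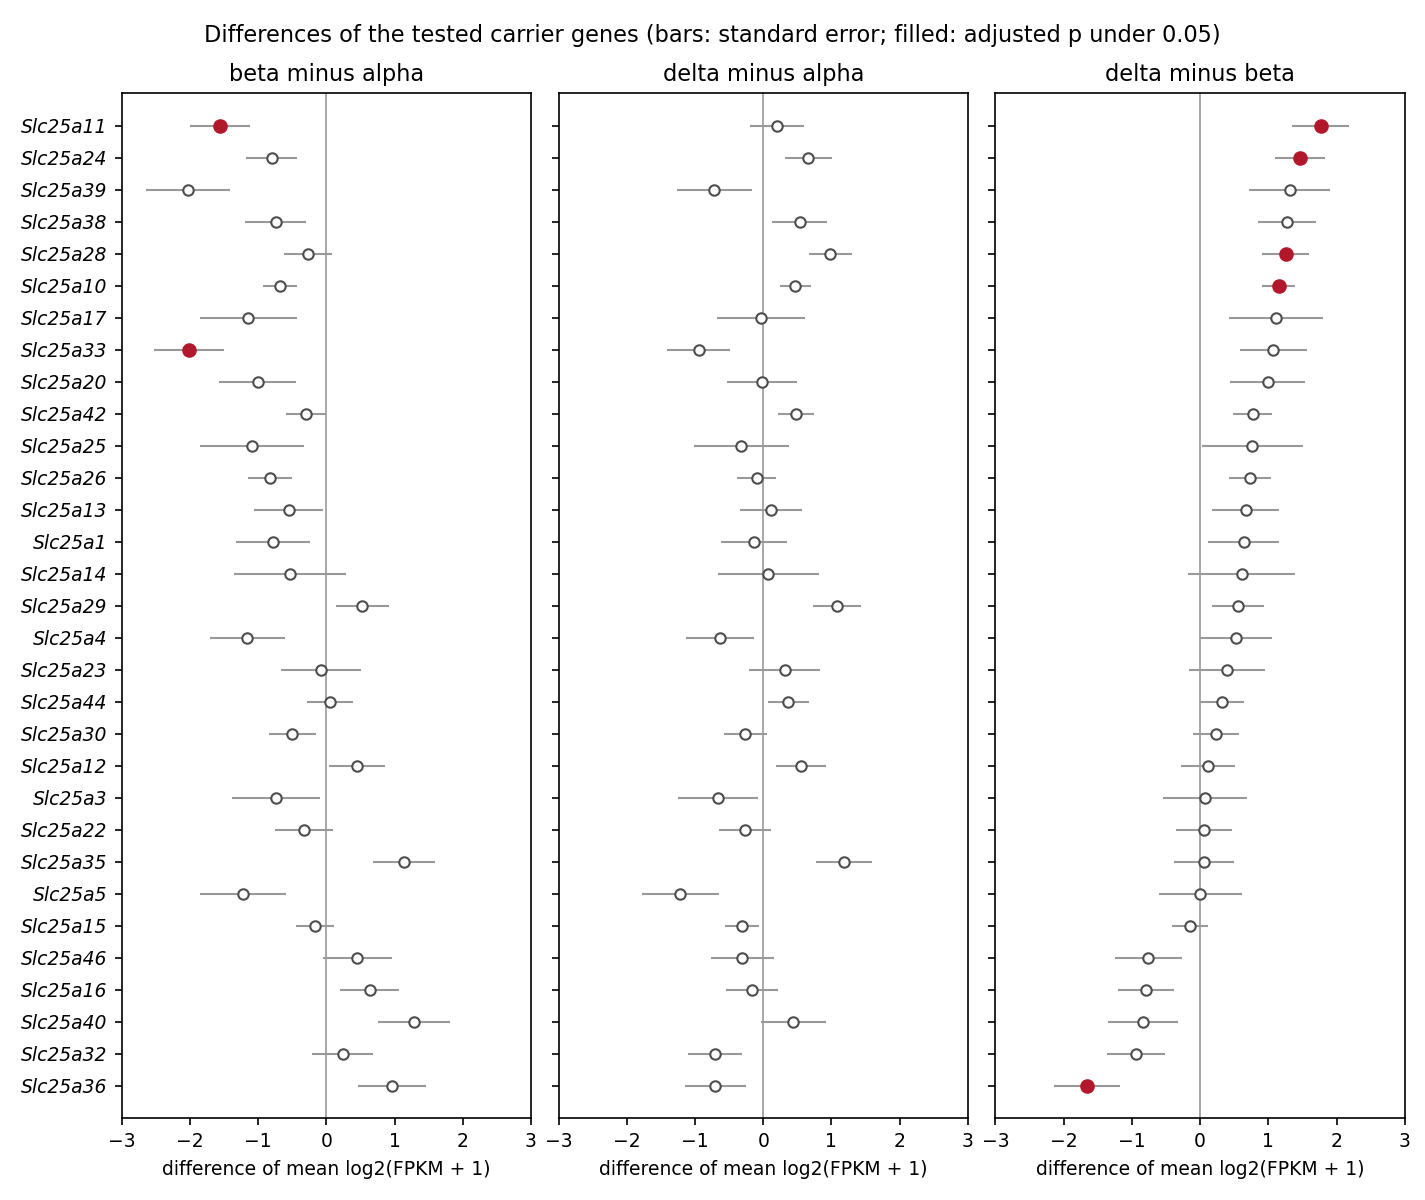
Difference of mean log2(FPKM + 1) with its standard error for 31 of the 32 tested members in the 3 comparisons, ordered by the difference between delta and beta cells. Filled points passed an adjusted p under 0.05 in limma, 2 between beta and alpha, 0 between delta and alpha and 5 between delta and beta cells.

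At a pseudocount of 1, the largest called differences belonged to Slc25a33, Slc25a11 and Slc25a36, while Slc25a10 (3.03) and Slc25a24 (2.46) exceeded the latter 2 between delta and beta cells at a pseudocount of 0.1. Their promoters are shown to give the sequence around the start of the 3 members with the largest called differences at a pseudocount of 1, from 250 bases before to 50 bases after the RefSeq start on GRCm38.p6, read along the gene. They lie at chr4:149774218-149774517 (Slc25a33), chr11:70646990-70647289 (Slc25a11) and chr9:97110992-97111291 (Slc25a36), all on the minus strand. Capitals mark 4 motifs, each searched on both strands. The cAMP response element is TGACGTCA. Its shorter core, which the full element contains on each strand, is ACGTCA. The E-box searched for is CACGTG. The last motif has no name here and reads TCGCGA.
Slc25a33: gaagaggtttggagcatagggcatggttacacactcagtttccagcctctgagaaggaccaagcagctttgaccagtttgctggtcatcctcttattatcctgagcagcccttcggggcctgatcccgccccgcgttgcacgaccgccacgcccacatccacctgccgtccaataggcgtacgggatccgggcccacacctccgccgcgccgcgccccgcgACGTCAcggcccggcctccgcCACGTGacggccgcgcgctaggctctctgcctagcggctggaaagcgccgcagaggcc
Slc25a11: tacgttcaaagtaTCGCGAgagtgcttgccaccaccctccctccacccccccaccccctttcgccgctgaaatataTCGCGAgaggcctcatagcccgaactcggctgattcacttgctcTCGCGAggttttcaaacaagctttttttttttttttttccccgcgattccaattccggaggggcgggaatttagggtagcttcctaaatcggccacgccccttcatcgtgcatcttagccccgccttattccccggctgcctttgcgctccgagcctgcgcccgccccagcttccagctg
Slc25a36: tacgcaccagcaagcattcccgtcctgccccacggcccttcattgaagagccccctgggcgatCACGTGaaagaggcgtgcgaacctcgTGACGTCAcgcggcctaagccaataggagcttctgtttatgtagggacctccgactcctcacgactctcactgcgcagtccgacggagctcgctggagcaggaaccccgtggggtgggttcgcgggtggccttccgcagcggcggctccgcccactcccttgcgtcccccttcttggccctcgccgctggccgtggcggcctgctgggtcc
Both pyrimidine nucleotide carriers held the E-box, at position -8 from the start in Slc25a33 and -187 in Slc25a36, a motif found in 7.15% of 32851 promoters. Slc25a36 also held the full cAMP response element at -161 (1.79% of promoters), and Slc25a33 held only the core, at -29 (7.51%). Slc25a11 held the unnamed motif 3 times, at -237, -174 and -130, a motif found at least once in 2.50% of promoters. Promoters were matched for 34 members, 43 promoters in all, of which 8 held the E-box, 5 the core, 2 the full element and 2 the unnamed motif. The CCAAT box (CCAAT) and the GC box (GGGCGG) were searched as well and are not marked. Each of the 3 promoters shown held both, which are found in 37.4% and 35.7% of promoters. Of the 43 member promoters, 21 held the CCAAT box and 36 the GC box. The promoters of the other called members, Slc25a10, Slc25a24 and Slc25a28, held none of the 4 marked motifs. A match describes the letters only.

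Slc25a33 lies at chr4:149744036-149774277 on the minus strand. Its level was 6.08, 9.83, 4.24, 1.27 and 0.543 FPKM in alpha samples 1 to 5. In beta samples 1 and 2 it was 0.0428 and 0.173 FPKM, and it was listed at 0 in beta 3 and 4. Every alpha sample was above every beta sample. The delta samples ranged from 0.264 through a median of 0.999 to 3.70 FPKM, above all beta samples and overlapping the alpha samples. Beta cells differed from alpha cells by -2.02 ± 0.512 on the log2(FPKM + 1) scale (SE, adjusted p = 0.0245, limma), and between delta and beta cells 1.07 (adjusted p = 0.164). The latter passed with a pseudocount of 0.1 (3.07, adjusted p = 0.0127), with a replicate block (1.45, 0.0217) and with only beta and delta samples fitted (0.0468). The call between beta and alpha cells held in 18 of 25 alternatives. It was lost without alpha 1, alpha 2, beta 1 or beta 4 (adjusted p up to 0.0663), with no filter on low genes (0.0827), with only alpha and beta samples fitted (0.0981) and with alpha and beta samples paired by number (0.116). Within the higher ribosomal set, alpha samples averaged 6.72 FPKM and beta 2 held 0.173, and within the lower set the means were 0.905 and 0.0143. The exons of Gm13068 on the other strand overlap 14.9% of its exonic bases.

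Slc25a36, pyrimidine nucleotide carrier 2, had its highest mean in beta cells. It lies at chr9:97074961-97111157 on the minus strand, and its mean in beta cells was 47.8 ± 33.0 FPKM, or 33.5 without beta 2. Its level was 31.1, 90.6, 14.6 and 54.9 FPKM in beta samples 1 to 4, and 12.2 ± 3.95 FPKM in delta cells, with a lowest, median and highest value of 5.75, 12.2 and 16.5. Alpha samples 1 to 5 held 29.9, 23.2, 29.2, 11.1 and 12.5 FPKM. Beta 1, 2 and 4 stood above every delta sample, and beta 3 lay within the delta range. Delta cells differed from beta cells by -1.66 ± 0.479 (SE, adjusted p = 0.0282, limma), whereas the 0.96 between beta and alpha cells was not called (adjusted p = 0.266). The latter passed in limma with size factors (1.20, adjusted p = 0.0218), quantile normalization (1.06, 0.0327) and the sample set with size factors (1.38, 0.00321). The call between delta and beta cells held in 18 of 25 alternatives. It was lost without beta 2, beta 4, delta 3, delta 5 or delta 6 (adjusted p up to 0.0937), with no filter (0.0668) and under a replicate block (0.0963). In the lower ribosomal set the means were 33.5 FPKM in beta and 11.2 in delta samples, and in the higher set 90.6 (beta 2) and 14.4. A single gene shares 6.7% of its 50-base stretches.

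The balance between these paralogues is free of a scaling that acts alike on all genes of a sample, because both values come from the same sample. Slc25a33 made up 16.9%, 29.8%, 12.7%, 10.3% and 4.16% of the summed Slc25a33 and Slc25a36 level in alpha samples 1 to 5. In beta samples 1 and 2 the share was 0.138% and 0.190%, and in beta 3 and 4 it was 0%. In delta samples it ranged from 2.43% through a median of 9.12% to 18.3%. The share moved with the ribosomal sets, at 12.7% to 29.8% in the higher and 4.16% to 10.3% in the lower set of alpha samples. It was 13.6% and 18.3% in delta 1 and 2, of the higher set, and 2.43% to 10.5% in the other delta samples. All beta samples lay below all alpha and delta samples, which overlapped. These shares were chosen after the levels were seen and carry no test. The glutathione carriers also differed in their balance, with Slc25a39 at 97.8% to 99.2% of the summed Slc25a39 and Slc25a40 level in alpha, 94.4% to 98.2% in delta and 92.1%, 81.7%, 87.3% and 59.0% in beta samples 1 to 4. The beta samples lay below all others. Slc25a39 itself was at 129, 133, 88.9, 28.9 and 53.3 FPKM in alpha and 17.4, 64.4, 9.65 and 8.40 in beta samples, a difference of -2.03 that missed the threshold (adjusted p = 0.0552, limma). It passed with size factors (-1.79, adjusted p = 0.0191), quantile normalization (-1.80, 0.0106), the sample set as a covariate (-1.47, 0.0175), the replicate block (-2.19, 0.0132) and a pseudocount of 0.1 (-2.10, 0.0413). Slc25a40 was at 1.50, 14.5, 1.41 and 5.83 FPKM in beta samples 1 to 4, a mean of 5.80, or 2.91 without beta 2. It averaged 1.18 FPKM in alpha and 2.05 in delta cells, with 1.28 between beta and alpha cells (adjusted p = 0.156). The difference passed with size factors (1.40, adjusted p = 0.0236), with the sample set as a covariate (1.70, 0.0127) and with both (1.71, 0.000727).

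**Figure D3:**
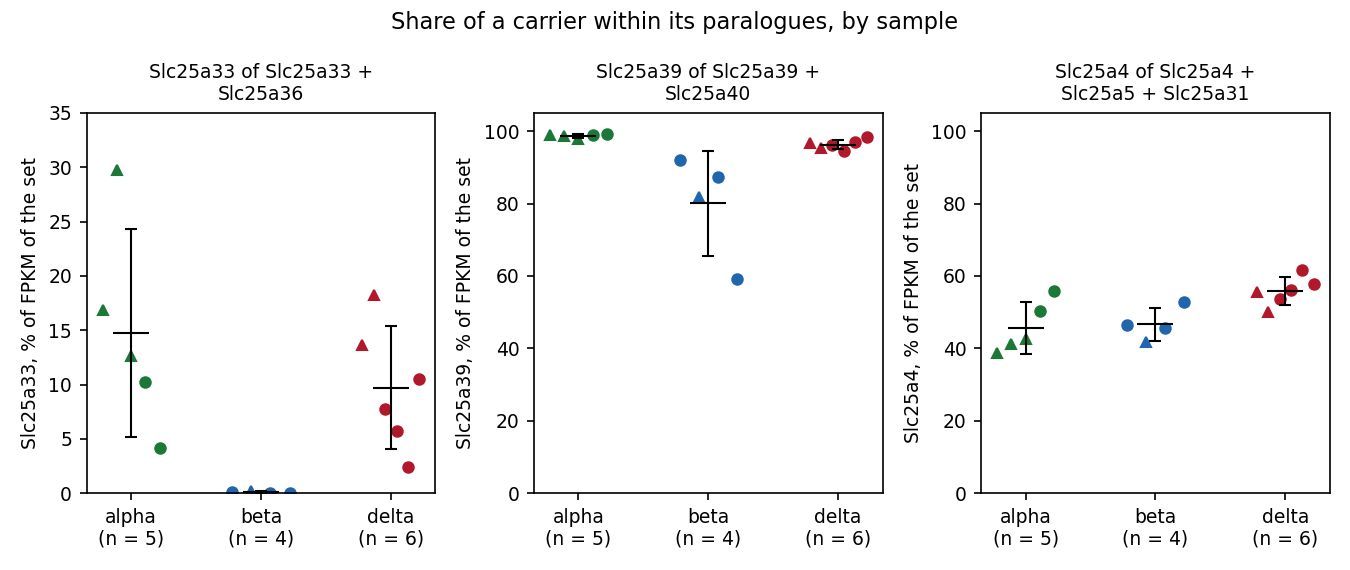
Share of a carrier in the summed FPKM of its paralogues in each sample (percent), with mean and SD in black, for Slc25a33, Slc25a39 and Slc25a4. Triangles are samples of the higher ribosomal set and circles of the lower. Beta samples lie at 0% to 0.190% for Slc25a33 and between 59.0% and 92.1% for Slc25a39, below all others in both, and the cell types overlap for Slc25a4.

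Slc25a11, at chr11:70644196-70647479 on the minus strand, carries oxoglutarate out of the matrix in exchange for malate. Its level was 34.3, 32.2, 19.7, 14.4 and 17.6 FPKM in alpha samples 1 to 5 and 3.91, 15.9, 5.87 and 5.86 in beta samples 1 to 4. Delta samples ranged from 17.2 through a median of 21.5 to 45.8 FPKM. All delta samples were above all beta samples, and only beta 2 reached into the alpha range. Delta cells exceeded beta cells by 1.77 ± 0.422 (SE, adjusted p = 0.0098, limma), a call kept in all 25 alternatives run. Beta cells differed from alpha cells by -1.56 ± 0.438 (adjusted p = 0.0396), a call that held in 13 of 26 alternatives. It was lost without alpha 1, 2, 3 or 5, beta 1, 3 or 4, or delta 3, 4 or 5 (adjusted p up to 0.127), with no filter (0.08), with only alpha and beta samples fitted (0.102) and with these paired by number (0.177). The ductal, mesenchymal and delta marker sums were higher in all alpha than in all beta samples. They were 25.4 to 172 against 8.56 to 24.7 FPKM, 1.77 to 4.95 against 0.0972 to 0.908, and 1405 to 3345 against 38.6 to 474. The part of these sums in the calls of Slc25a33 and Slc25a11 was not tested. Delta and alpha cells differed by 0.20 (adjusted p = 0.869). In the higher and lower ribosomal sets the means were 28.7 and 16.0 FPKM in alpha, 15.9 and 5.21 in beta, and 44.2 and 19.8 in delta cells. The exons of Rnf167 on the other strand overlap 8.9% of its exonic bases.

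Slc25a10, the dicarboxylate carrier, was also called higher in delta than in beta cells. It exchanges malate or succinate for phosphate. The gene lies at chr11:120491840-120499187 on the plus strand. Its level was low throughout, at 0.533, 0.675, 1.20, 0.523 and 0.901 FPKM in alpha samples 1 to 5 and 0.170, 0.0286, 0.0355 and 0.143 in beta samples 1 to 4, and from 0.984 through a median of 1.40 to 2.22 FPKM in delta samples. No beta sample overlapped the samples of either other cell type. Delta cells exceeded beta cells by 1.15 ± 0.245 (SE, adjusted p = 0.00464, limma), kept in all 24 alternatives. The log2 ratio of the mean FPKM was 3.95, since the pseudocount shrinks differences at this level. Beta and alpha cells differed by -0.68 (adjusted p = 0.12), with a log2 ratio of means of -3.02, and this difference was called with only these samples fitted (adjusted p = 0.0204) and with a pseudocount of 0.1 (-2.18, adjusted p = 0.0117). Within the higher ribosomal set the means were 0.803 FPKM in alpha, 0.0286 in beta and 1.62 in delta cells, and within the lower set 0.712, 0.116 and 1.38. Of the 6 tested carriers of carboxylates and aspartate or glutamate, Slc25a1, Slc25a12, Slc25a13 and Slc25a22 were called in no comparison. Slc25a12 made up 98.4% to 99.7% of the summed Slc25a12 and Slc25a13 (citrin) level in beta, 89.8% to 98.5% in delta and 74.7% to 99.6% in alpha samples, where alpha 3 was the lowest.

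Slc25a24, which moves ATP-Mg against phosphate and carries calcium-binding EF-hands, lies at chr3:109123149-109168457 on the plus strand. It was at 2.74, 0.818, 3.09, 0.653 and 3.45 FPKM in alpha samples 1 to 5 and 0.661, 1.69, 0.145 and 0.490 in beta samples 1 to 4. Delta samples ranged from 2.01 through a median of 3.58 to 5.88 FPKM, above all beta samples and overlapping the alpha samples. Delta cells exceeded beta cells by 1.47 ± 0.362 (SE, adjusted p = 0.012, limma), kept in all 24 alternatives, and differed from alpha cells by 0.66 (adjusted p = 0.356). The means in the higher ribosomal set were 2.22 FPKM in alpha, 1.69 in beta and 4.56 in delta cells, and in the lower set 2.05, 0.432 and 3.32. Its sister genes Slc25a23 and Slc25a25, which share the EF-hands, were called in no comparison. Slc25a23 averaged 12.1 ± 11.7 FPKM in alpha, 7.66 ± 1.39 in beta and 10.9 ± 4.03 in delta cells. In alpha cells it was 3.93 FPKM in the higher and 24.4 in the lower ribosomal set, against the direction of most members. Slc25a25 was at 1.53, 6.67, 3.83 and 4.35 FPKM in alpha 1, 2, 4 and 5 and at 90.0 in alpha 3.

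Slc25a28 is mitoferrin 2, an iron importer, at chr19:43663801-43674881 on the minus strand. It was at 2.43, 5.04, 6.50, 3.24 and 5.92 FPKM in alpha samples 1 to 5 and 3.48, 5.84, 2.47 and 2.77 in beta samples 1 to 4. Delta samples ranged from 5.61 through a median of 9.71 to 17.6 FPKM, and only the lowest overlapped the other cell types. The difference between delta and beta cells was 1.25 ± 0.341 (SE, adjusted p = 0.0209, limma), lost without beta 1, beta 3 or beta 4 with adjusted p up to 0.0682. Between delta and alpha cells it was 0.99 (adjusted p = 0.0863), which passed with the sample set as a covariate (1.11, 0.0267) and with the replicate block (1.12, 0.0491). In the higher and lower ribosomal sets the delta means were 14.1 and 8.28 FPKM and the beta values 5.84 and 2.91. Slc25a28 made up 88.3% to 93.6% of the summed mitoferrin level in delta, 73.5% to 90.5% in beta and 78.9% to 98.1% in alpha samples. Slc25a38, the glycine carrier of haem synthesis, averaged 3.60 ± 2.14 FPKM in delta and 0.816 ± 0.646 in beta cells, a difference of 1.28 that missed the threshold (adjusted p = 0.0551). It passed with the sample set as a covariate (1.19, adjusted p = 0.0134), with the replicate block (1.57, 0.00594), with a pseudocount of 0.1 (2.03, 0.0311) and with only beta and delta samples fitted (1.28, 0.04). The summed acinar markers were also higher in all delta samples than in all beta samples, and their part in the differences between delta and beta cells was not tested.

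**Figure D4:**
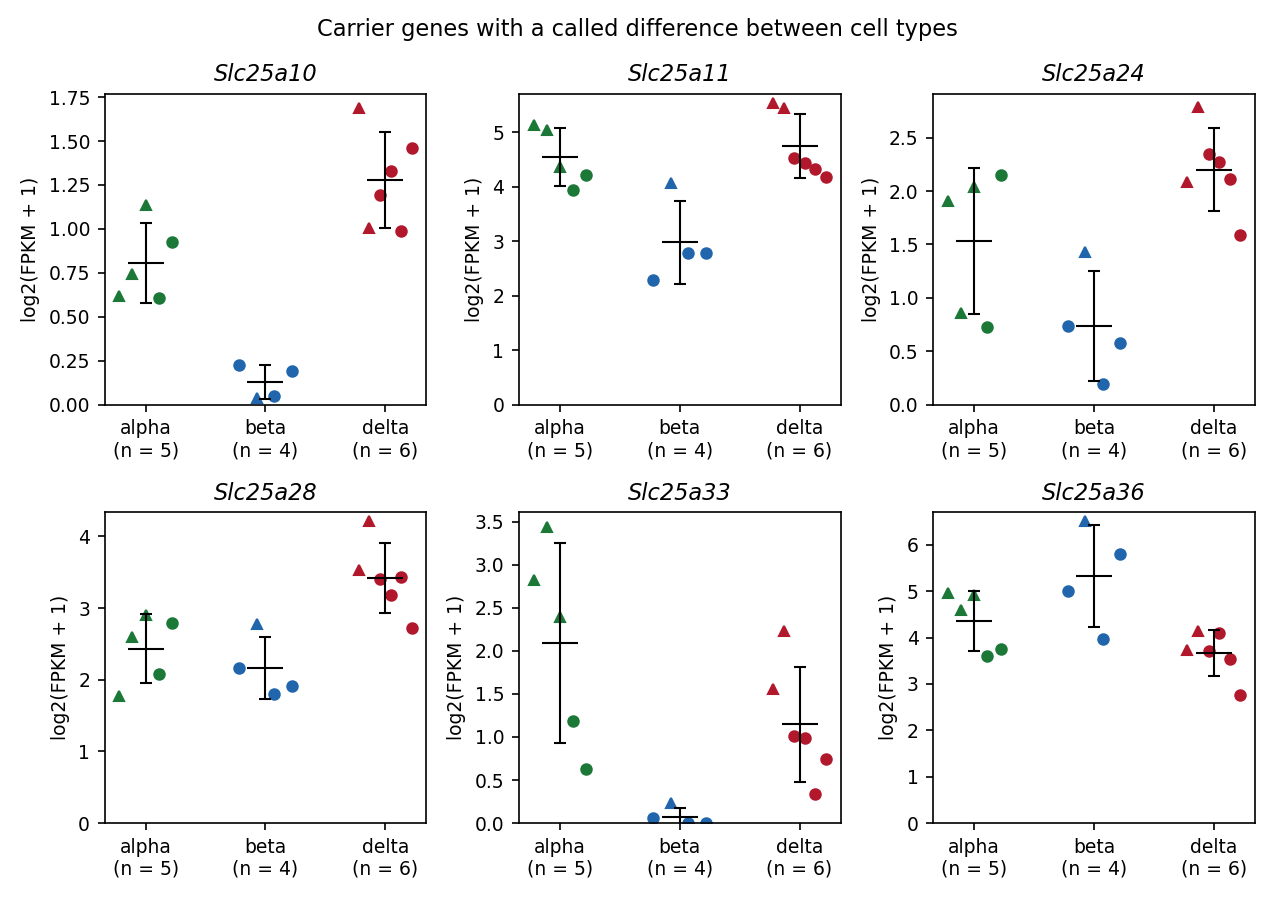
Level as log2(FPKM + 1) in each sample of the 6 carriers called in any comparison, with mean and SD in black. Triangles are samples of the higher ribosomal set and circles of the lower. Beta samples lie below all delta samples for Slc25a10, Slc25a11, Slc25a24 and Slc25a33.

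**Figure D5:**
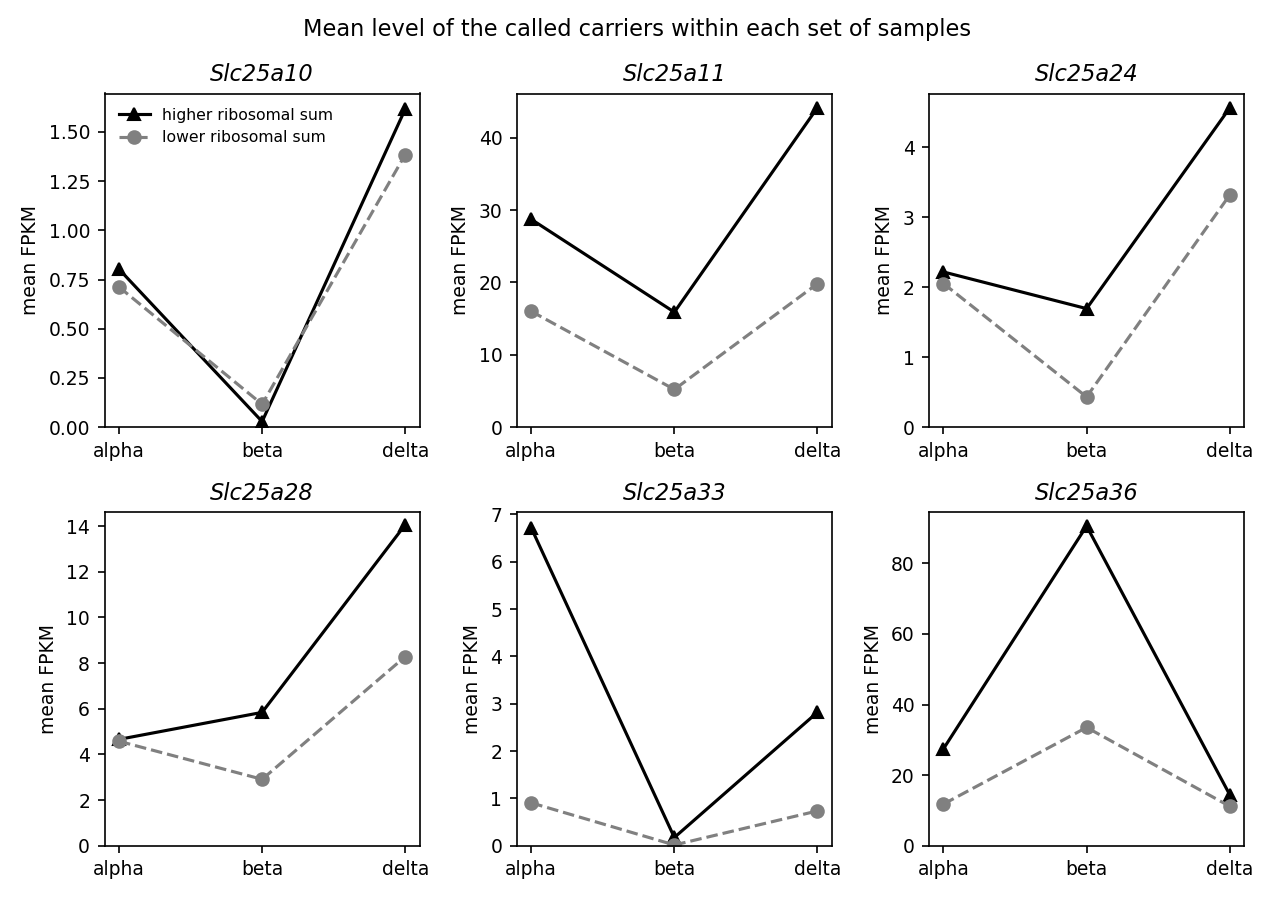
Mean FPKM of the 6 called carriers within the higher (solid, triangles) and lower (dashed, circles) ribosomal set, with lines joining the cell types to guide the eye. The higher set holds 3 alpha, 1 beta and 2 delta samples, and the lower 2, 3 and 4. Beta is the lowest point in both sets for Slc25a10, Slc25a11, Slc25a24 and Slc25a33 and the highest in both for Slc25a36.

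Apart from the 6 called members, no tested member was called in any comparison. For the 5 tested carriers of amino acids and acylcarnitine, the differences ran from -1.01 to 0.53 between beta and alpha cells, -0.32 to 1.08 between delta and alpha cells and -0.15 to 1.28 between delta and beta cells. The highest of these between delta and alpha cells was that of Slc25a29, the basic amino acid carrier (adjusted p = 0.0882, limma). The 3 tested nucleotide and phosphate carriers of oxidative phosphorylation were all below 0 in beta (-1.22 to -0.73) and in delta cells (-1.21 to -0.63) against alpha cells. In the higher ribosomal set, beta 2 was above the alpha mean for Slc25a3 (476 against 337 FPKM), Slc25a4 (126 against 106) and Slc25a5 (176 against 153). In the lower set the beta means were below the alpha means, at 82.8 against 109, 27.5 against 65.7 and 28.0 against 57.3. The delta means were below the alpha means in both sets. The 10 cofactor, nucleotide and glutathione carriers, which include the called Slc25a33 and Slc25a36, ranged from -2.03 to 1.28 between beta and alpha cells and from -1.66 to 1.31 between delta and beta cells. Slc25a4 made up 38.7% to 55.7% of the summed ADP/ATP translocator level in alpha and 41.8% to 52.8% in beta samples, and 55.8% ± 3.95 (SD, n = 6) in delta samples, which overlapped both.

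Of 5 tested carriers named outside the rule, 2 were called, beside 19.0% of all genes tested called in any comparison. Ucp2, an inner membrane carrier known for its part in the control of insulin secretion, was at 421, 408, 288, 265 and 429 FPKM in alpha samples 1 to 5 and 94.8, 268, 107 and 115 in beta samples 1 to 4, and ranged from 473 to 720 in delta samples. The delta samples were above all others, and only beta 2 reached the alpha range. The difference was -1.41 ± 0.385 between beta and alpha cells (SE, adjusted p = 0.035, limma; 0.054 with a replicate block) and 2.12 ± 0.37 between delta and beta cells (adjusted p = 0.000992). Mcart6 was at 27.5, 25.7, 25.7, 9.26 and 22.4 FPKM in alpha samples 1 to 5, 1.68 to 6.27 in beta and 3.36 to 11.4 in delta samples. Alpha samples were above all beta samples, and alpha 4 lay within the delta range. Its difference was -2.54 ± 0.421 between beta and alpha cells (adjusted p = 0.00117) and -1.62 ± 0.38 between delta and alpha cells (adjusted p = 0.0136).

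The enzymes and channels that work beside the carriers were given by lists, read against the 19.0% of all genes called in any comparison. Of 7 NADH shuttle enzymes 1 was called, Mdh2, the mitochondrial malate dehydrogenase, which averaged 127 ± 29.5 FPKM in delta and 52.6 ± 28.2 in beta cells (1.37, adjusted p = 0.0338, limma). Of 10 enzymes of citrate and pyruvate cycling 3 were called. Pcx, pyruvate carboxylase, was at 1.52 to 5.95 FPKM in beta, 0.121 to 0.634 in alpha and 0.142 to 1.01 in delta samples, so that the beta samples stood apart from both (1.50 against alpha cells, adjusted p = 0.0101; -1.24 for delta against beta cells, adjusted p = 0.0145). Acly, which cleaves the citrate exported by Slc25a1, averaged 205 ± 101 FPKM in beta and 67.0 ± 15.8 in alpha cells (1.49, adjusted p = 0.0494; 1.46 and 0.0945 with a replicate block). Me3, a mitochondrial malic enzyme, averaged 4.55 ± 1.60 FPKM in delta and 1.32 ± 0.454 in alpha cells (1.23, adjusted p = 0.0118).

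Of 11 tested genes of pyruvate and calcium entry 1 was called, Mcu (Ccdc109a in the table), the pore of the calcium uniporter, at 4.70 ± 1.38 FPKM in delta and 1.72 ± 0.912 in beta cells (1.09, adjusted p = 0.0298, limma). Of 13 tested genes of outer membrane channels and carrier import 1 was called, Tomm40, the import channel, at 7.79 ± 3.53 in delta and 1.94 ± 1.72 in beta cells (1.66, adjusted p = 0.0093). Of 5 sideroflexins 1 was called, Sfxn5, at 2.24 to 10.2 FPKM in delta, 0 to 1.86 in alpha and 0.122 to 2.82 in beta samples. Its difference was 2.07 between delta and alpha cells (adjusted p = 0.00363) and 1.70 between delta and beta cells (adjusted p = 0.0144), and beta 2 lay within the delta range. In the order in which these lists are described, from the carriers named outside the rule to the sideroflexins, the median difference between delta and beta cells was 0.56, 0.39, 0.08, 0.38, 0.37 and 0.29, beside 0.30 over all genes tested. Between beta and alpha cells it was -0.37, -0.36, 0.38, -0.36, -0.60 and 0.38, beside -0.13.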

How the data were processed

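RNA from sorted cells was amplified with NuGEN kits, and single 50-base reads were aligned by the authors to GRCm38 with TopHat (TopHat2 2.0.8 in the submitters' processing notes; the paper names another version). The authors deposited FPKM per gene from Cufflinks 2.2.1 for 38283 genes. Their edgeR comparison of raw counts was not used here.

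Differences were tested with limma 3.58.1 (R 4.3.3; lmFit, eBayes with trend) on log2(FPKM + 1), which understates changes of low genes, with all 15 samples in 1 fit, a mean per cell type and no covariate. Genes needed a mean above 1 FPKM in at least 1 cell type (14405 genes). Benjamini-Hochberg adjustment ran over all of them, and an adjusted p under 0.05 was a call. The fit was tested on simulated data. Members and lists were chosen with earlier results of these data known. Named were called members, the 8 with the highest mean, the low members and called genes of each list. Some other tested members appear only in the counts and in the range of their class. Other values (paralogue shares, near misses) were chosen after they were seen. A tested member is counted but not reported by itself here. The deposited values give no read totals; steps of single reads were sought in genes with 1 transcript longer than 1000 bases. Coordinates are from GENCODE M21 (GRCm38), where all 44 members have an entry; promoters are from RefSeq (GRCm38.p6). Samples were split by summed ribosomal protein FPKM at 50000. Alternatives were other filters, pseudocount, scalings, thresholds, fits, the sample set as a covariate and leaving out each sample; the set covariate with size factors was added after seeing the data. Python 3.11.15 was used.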

Additional observations from a re-analysis of the deposited data

Results flagged for a closer look

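In 6 of 99 groups examined, where chance gives about 4.95, a single sample stood far from the others. Slc25a13 (citrin) was at 4.16 FPKM in delta 2 and 0.679 to 1.14 in the other delta samples. Slc25a15, the ornithine carrier, was at 2.64 FPKM in beta 2 and 0.867 to 1.09 in the other beta samples, and Slc25a38 was at 1.78 FPKM in beta 2 and 0.463 to 0.525 in the others. Slc25a30, an uncoupling protein-like carrier, was at 0.859 FPKM in beta 4 against 0.259 to 0.310 in the other beta samples, and at 2.01 FPKM in delta 1 against 0.278 to 0.598 in the other delta samples. Slc25a46, a carrier of the outer membrane, was at 4.95 FPKM in alpha 4 and 16.0 to 17.9 in the other alpha samples.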

How the results depend on the processing

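No called difference changed direction under any alternative; of 174 tested alternatives of the 7 calls, 144 kept the call and 30 lost it, and the cause was not tested. Between beta and alpha cells the 2 calls became 5 with size factors (14.4% of all genes called), 5 with quantile normalization (14.3%), 4 with a pseudocount of 0.1 (10.1%), 4 with the sample set as a covariate (9.99%), 6 with that and size factors together (18.9%), 1 when only alpha and beta samples were fitted (Slc25a10, with Slc25a33 and Slc25a11 lost), 0 with no filter and 0 at an adjusted p under 0.01. Between delta and alpha cells 0 became 2 with quantile normalization (7.54%), 1 with the sample set (8.48%) and 1 with the set and size factors (9.75%). Between delta and beta cells 5 became 8 with size factors (18.6%), 8 with quantile normalization (19.1%), 8 when only beta and delta samples were fitted, 12 with the set and size factors (27.4%), 3 among genes above 5 FPKM and 2 at an adjusted p under 0.01. The F-test's 5 became 10, 9, 14 and 9 with size factors, quantile normalization, set and size factors, and set, 3 with no filter, 2 above 5 FPKM and 0 at 0.01. No share of all genes was taken for these F-tests, the fits of 2 cell types, the filters or the threshold of 0.01. The same holds for the samples left out and the lists that follow, so these changes cannot be read as particular to the genes counted. Leaving out each sample in turn gave 0 to 6, 0 to 2, 3 to 8 and 1 to 9 calls, and summed means of 736 to 928 FPKM (alpha), 326 to 719 (beta) and 521 to 621 (delta). NADH shuttle calls became 2 with quantile normalization, citrate and pyruvate cycling calls 5 with size factors and 5 with quantile normalization, pyruvate and calcium entry calls 2 with a pseudocount of 0.1 and 3 with the set, outer membrane and import calls 4 with size factors, 3 with quantile normalization and 2 with the set, and sideroflexin calls 2 with size factors, quantile normalization or the set.

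Between same-numbered samples r ran from -0.152 to 0.281 and was over 0.1 for some pairs only, among them all 3 pairs of samples numbered 2, which are all in the higher ribosomal set, so the numbers were not taken as pairs. With a replicate block, which called 8.52%, 5.77% and 13.9% of all genes between beta and alpha, delta and alpha, and delta and beta cells, 1 member was called between delta and alpha cells (Slc25a28, 1.12, adjusted p = 0.0491, limma), 2 outer membrane and import genes were called, citrate and pyruvate cycling calls went from 3 to 2 with Acly lost, Slc25a39 was added between beta and alpha cells (-2.19, adjusted p = 0.0132) and the calls between delta and beta cells went from 5 to 7, with Slc25a33 (1.45, adjusted p = 0.0217), Slc25a38 (1.57, adjusted p = 0.00594) and Slc25a39 (1.66, adjusted p = 0.0287) added and Slc25a36 lost. A replicate block on only pairs 1 to 4 of alpha and beta cells gave 0 calls. The depth is unknown in 9 samples, so values listed at 0 carry no floor.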

Other observations

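Slc25a25, a calcium-regulated ATP-Mg/phosphate carrier, took 94.9% of the summed Slc25a23, Slc25a24 and Slc25a25 level in alpha 3, 60.1% in alpha 2 and 12.0% to 15.3% in alpha 1, 4 and 5. In beta samples the share had a median of 23.0% and was highest in beta 2, at 48.4%, and in delta samples 24.8% to 32.7%. Alpha 3 also held the highest Slc25a13 of the alpha samples, at 6.75 FPKM against 0.125 to 1.38 in the others. The immediate early gene Fos was at 30.2 FPKM in alpha 3 and 2.90 to 8.07 in the other alpha samples. Atf3 was at 1.39 FPKM in alpha 3 and 0 to 0.134 in the others, whereas Junb was at 0.439 FPKM in alpha 3, the lowest of the alpha samples. These genes were chosen after their values were seen, and their relation to Slc25a25 was not tested.

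Slc25a35, a carrier on chromosome 11, differed by 1.13 between beta and alpha cells and 1.19 between delta and alpha cells, neither called (adjusted p = 0.146 and 0.112, limma). Exons of Rangrf overlap 31.3% of its exonic bases.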
